A study of Mus musculus with 15 samples.

Results

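Type I interferon-induced genes are described here in the colon mucosa of mice with and without chronic colitis and with and without filgotinib. The group is a list of 36 genes named as targets of type I interferon, and the rule that picks their probes uses gene names and signal above background, not differences between groups. Each gene was found by its name in the scanner files, among probes that are not controls, and is represented by its brightest probe above background. All 36 genes had such a probe, out of 22015 genes tested. RNA came from mucosa scraped off the distal 30 mm of the colon of female Balb/cJ mice, and each of the 15 mice was measured on 1 single-colour Agilent array. There were 3 groups of 5 mice. The first received drinking water. The second, called DSS vehicle mice below, received dextran sodium sulfate (DSS), a sulfated sugar polymer toxic to the lining of the colon, at 4% in the water for 3 cycles of 4 days, each separated from the next by 3 days on plain water, together with the vehicle of the drug. The third, called filgotinib mice, received the same DSS and filgotinib, an inhibitor that prefers the kinase JAK1, at 30 mg/kg by daily gavage. All animals were of the same strain and sex, and colitis was started at 8 weeks of age. The labels name a vehicle control as the compound of the water group while the design text names drinking water only, so whether the water mice were gavaged is not settled by the sources used here.

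Type I interferons (IFN-alpha and IFN-beta) bind the receptor made of IFNAR1 and IFNAR2, which activates the kinases JAK1 and TYK2. These phosphorylate STAT proteins, which join IRF9 to form the complex ISGF3, and ISGF3 binds the interferon-stimulated response element (ISRE) in front of its target genes. The products of these genes block viral RNA, protein synthesis and release, sense foreign nucleic acid, or feed back on the pathway itself. In the intestine interferon lambda uses another receptor and the same kinases and complex, and many of the genes also respond to interferon gamma. The values below therefore measure the genes and not the interferon that may act on them. The comparisons ask whether DSS colitis changed these genes, and whether inhibition of JAK1, on which the receptor depends, changed them in mice with colitis.

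The ISRE core, taken as GAAA, any 2 bases and GAAA again on either strand, was searched in the RefSeq promoter windows of build GRCm38.p6, which reach from 250 bases before to 50 bases after the transcription start. A window was given for 26 of the 36 genes, and 12 of these (46.2%) held the core, against 1079 of 27025 genes (3.99%) in the whole table. The sequences shown come from before the start, 5′ to 3′ on the strand of the gene, with the matches in capitals (overlapping matches form longer runs). They are chosen to set 3 genes that the arrays called as changed (Ifit3, Oas1a and Trim30a) beside 2 textbook targets that were not called (Isg15 and Ifit1).
Ifit3: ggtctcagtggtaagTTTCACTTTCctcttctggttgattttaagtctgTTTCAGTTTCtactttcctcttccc
Oas1a: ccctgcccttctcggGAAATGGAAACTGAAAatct
Trim30a: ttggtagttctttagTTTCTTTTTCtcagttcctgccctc
Isg15: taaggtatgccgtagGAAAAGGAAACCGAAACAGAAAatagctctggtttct
Ifit1: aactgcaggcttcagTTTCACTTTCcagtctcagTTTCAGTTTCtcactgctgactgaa
The Ifit3 stretch lies at chr19:34583358-34583431 on the plus strand and its nearer match lies 113 bases before the start. Oas1a is shown at chr5:120907526-120907560 and Trim30a at chr7:104465205-104465244, both on the minus strand. The stretches of Isg15 at chr4:156200860-156200911 (minus strand) and Ifit1 at chr19:34640770-34640828 (plus strand) hold their matches 57 to 78 and 76 to 104 bases before the start. The core was in the window of 3 of the 9 genes called in either comparison with DSS vehicle mice that have a window, and of 9 of the 17 that were not called. A match describes the letters of the window and not a site in use. Several of the genes are neighbours: with no other protein-coding gene between them lie Parp14, Dtx3l and Parp9 on chromosome 16, Ifit2 and Ifit3 on chromosome 19, Rsad2 and Cmpk2 on chromosome 12, and Oas2 and Oas3 as well as Oasl2 and Oasl1 on chromosome 5. In the array's own annotation (build mm9), the probes of the 7 genes that changed in both comparisons lie at chr16:35832992-35833051 for Parp14, chr16:35926655-35926714 for Dtx3l, chr16:35972577-35972636 for Parp9, chr19:34650244-34650303 for Ifit2, chr19:34663105-34663164 for Ifit3, chr3:151394035-151394094 for Ifi44 and chr6:3322520-3322579 for Samd9l.

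Values are given as log2 values, that is, log2 of the background-corrected spot signal minus the 75th percentile of its array, so 0 is the 75th percentile and a difference of 1 is a 2-fold difference. They compare mice for the same probe and not genes with each other. Values of a group are listed in the order of mice 1 to 5. Fold changes and standard errors (SE) are from 1 limma fit over all 15 arrays, n = 5 per group, and a gene is said to rise or fall at a Benjamini-Hochberg adjusted p under 0.05 over all 22015 genes. The share of probes well above background ran from 50.2% to 62.1% over the arrays, and 32 of the 36 genes were so on all 15 arrays. All 11 colon epithelium markers checked, among them Epcam and Vil1, had signal and were tested, as the labelled tissue would have. Arrays lay on 6 slides scanned on 4 days, and no slide held both filgotinib and water mice. In this bulk tissue, fewer cells of a type and less RNA per cell cannot be told apart.

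Part of the type I interferon-induced genes rose in mice given DSS, and none passed the test as lower. Of the 36 genes 11 rose (30.6%), against 10.8% of all genes tested, and 0 fell, against 8.41%. The median log2 fold change was 0.54, against 0.05 over all genes, and the DSS vehicle mean was above the water mean for 35 genes, Ifitm3 being the exception. The values of the DSS vehicle and water mice did not overlap for 8 genes (9.84% of all genes were higher without overlap), and 0 genes lay below water without overlap (6.2% of all genes). The largest rises were those of Ifit2 (4.23-fold), Ifi44 (3.71-fold), Ifit3 (2.87-fold), Zbp1 (2.55-fold) and Mx1 (2.18-fold). Samd9l, Zbp1, Ifit3, Parp14, Dtx3l, Parp9 and Oas1a were called in each of 15 fits that left out 1 mouse. The count was 7 without DSS vehicle mouse 1, water mouse 4 or water mouse 5 (7.3%, 6.91% and 7.67% of all genes higher). It was 0 with the slide as a fixed block (3 genes at an unadjusted p under 0.05 in limma, 1 of them lower). In that fit the comparison rests on slide 4 with 1 DSS vehicle mouse, and 0.154% of all genes were called higher, so a count of 0 of 36 is what this share gives.

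With filgotinib, 11 of the 36 genes were lower than in DSS vehicle mice (30.6%, against 4.53% of all genes) and 0 were higher (against 6.79%). The median log2 fold change was -0.65, against 0.00 over all genes, and the mean was lower for 33 genes. The other 3, Ifi27l2a, Irf7 and Ifitm3, had differences of 0.53 ± 0.54 (adjusted p = 0.555), 0.05 ± 0.17 (adjusted p = 0.88) and 0.17 ± 0.39 (adjusted p = 0.822). The largest falls were those of Ifit2 (6.56-fold), Ifi44 (5.8-fold), Mx2 (3.46-fold), Ifit3 (3.37-fold) and Usp18 (3.23-fold). The probes of Ifit2, Ifi44 and Mx2 were well above background in 4 of 5 filgotinib mice and not in mouse 5, so their folds depend on a dim value. Without that mouse the order was Ifit2 (4.54-fold), Ifi44 (3.95-fold), Ifit3 (2.89-fold) and then Mx2 and Usp18 (2.46-fold each, not called). Ifit3, Dtx3l, Samd9l, Parp9, Parp14 and Ifit2, together with Rsad2, which was not called, showed no overlap between the groups (3.12% of all genes were lower without overlap), and 0 genes were higher without overlap (4.87% of all genes). Both comparisons share the DSS vehicle mice, so the same mice set both differences. In both, 7 genes were called (Dtx3l, Ifi44, Ifit2, Ifit3, Parp14, Parp9 and Samd9l), and 15 in at least 1. The shares of all genes called in both, or in at least 1, were not counted, so these counts are descriptions. These 7 were called in each of 15 fits that left out 1 mouse for filgotinib. The count fell to 7 without filgotinib mouse 5 (2.59% of all genes lower) and to 7 when only the 10 arrays of the compared groups were fitted (2.37%). With the slide as a fixed block 2 genes were lower, Parp9 and Samd9l (2 of 36, against 0.922% of all genes).

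In filgotinib mice compared with water mice, 0 of the 36 genes were called (6.42% of all genes were higher and 3.41% lower), and 1 had an unadjusted p under 0.05. Groups without overlap were found for 0 of the 36 genes (6.75% of all genes higher and 2.82% lower). The gene below an unadjusted p of 0.05 was Zbp1, with a log2 difference of 0.66 ± 0.27 (adjusted p = 0.122). The median difference was -0.12, against 0.05 over all genes, and 21 of the 36 means lay below water. A p that misses the threshold does not show equal levels: the SE of a difference reached 0.65 for Oas3, 0.61 for Ifi44 and 0.60 for Ifit2. A second, dimmer probe of Rsad2 was called lower than in water at a log2 difference of -1.35, while its brightest probe differed by -0.54 ± 0.36 (adjusted p = 0.348).

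**Figure D1:**
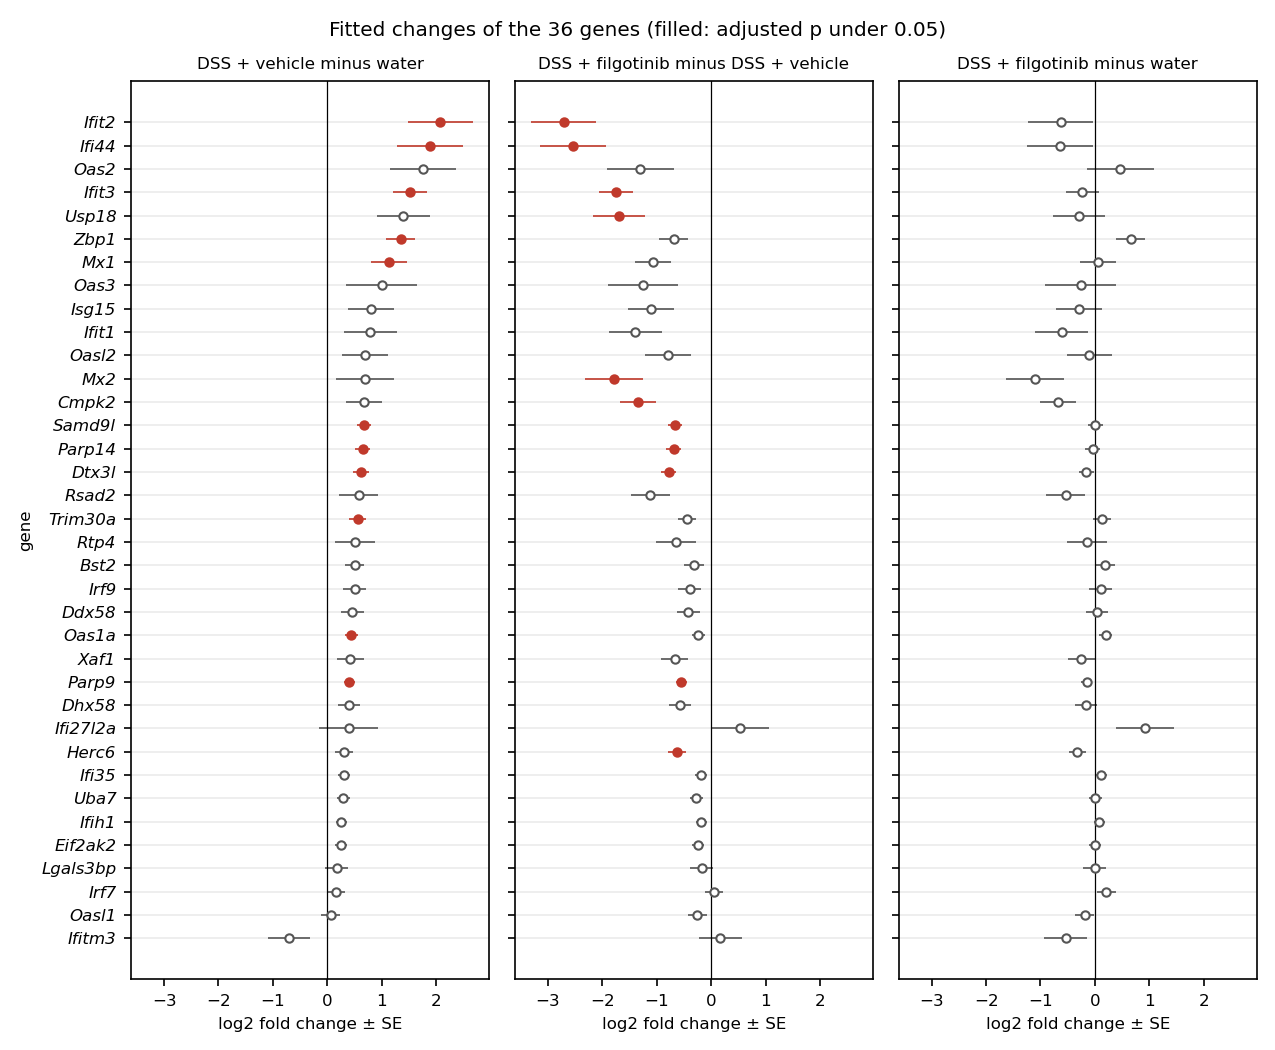
Log2 fold change (x axis) of each of the 36 genes (y axis, ordered by the change with DSS) in the 3 comparisons, as points with bars of ± 1 SE from the fit over 15 arrays. Filled red points are called at an adjusted p under 0.05: 11 lie to the right of 0 for DSS vehicle minus water, 11 to the left for filgotinib minus DSS vehicle, and 0 are filled for filgotinib minus water.

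The ADP-ribosylation genes moved together: Parp14, Dtx3l and Parp9 rose with DSS and fell with filgotinib, 3 of 3 in each comparison (10.8% of all genes rose and 4.53% fell). PARP9 and the ubiquitin ligase DTX3L form a complex that modifies proteins during the interferon response, and PARP14 is a large ADP-ribosyltransferase. Dtx3l had log2 values of 2.14, 2.08, 2.45, 2.30 and 2.15 with water, 3.02, 2.78, 2.54, 3.05 and 2.82 with DSS and vehicle and 2.32, 1.74, 2.12, 2.38 and 1.75 with DSS and filgotinib. Every DSS vehicle mouse was above every water mouse and every filgotinib mouse, with filgotinib mice 2 and 5 the lowest of all. It rose by 0.62 ± 0.14 (adjusted p = 0.00831) with DSS and changed by -0.78 ± 0.14 (adjusted p = 0.00472) with filgotinib. Parp14 had log2 values of 3.30, 3.20, 3.49, 3.27 and 2.94 with water, 4.09, 3.80, 3.58, 4.14 and 3.82 with DSS and vehicle and 3.43, 3.01, 3.34, 3.35 and 2.86 with DSS and filgotinib. Its DSS vehicle mice again lay apart from both other groups, at differences of 0.65 ± 0.14 (adjusted p = 0.00597) and -0.69 ± 0.14 (adjusted p = 0.00755). Parp9, with log2 values of 2.55, 2.34, 2.67, 2.60 and 2.45 with water, 3.08, 2.83, 2.68, 3.10 and 2.92 with DSS and vehicle and 2.46, 2.14, 2.47, 2.58 and 2.22 with DSS and filgotinib, showed the same separation by a smaller distance, since DSS vehicle mouse 3 exceeded the highest water mouse narrowly. It rose by 0.40 ± 0.10 (adjusted p = 0.0178) and changed with filgotinib by -0.55 ± 0.10 (adjusted p = 0.00625). Parp9 has several probes above background and they disagree, with log2 fold changes from -0.30 to 0.61 for DSS and from -0.55 to 0.05 for filgotinib, whereas both probes of Dtx3l and both of Parp14 were called in both comparisons. With the mean of a gene's probes Parp9 was called in neither comparison.

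Of the IFIT and OAS families, 3 of 8 genes (Ifit2, Ifit3 and Oas1a) rose with DSS and 2 of 8 (Ifit2 and Ifit3) fell with filgotinib, against 10.8% and 4.53% of all genes. IFIT proteins bind viral RNA and block its translation, and OAS enzymes make an oligoadenylate that activates the ribonuclease RNase L. Ifit3 had log2 values of -1.49, -0.91, -1.14, -0.89 and -1.63 with water, 0.36, -0.51, 0.31, 1.31 and 0.08 with DSS and vehicle and -1.14, -1.16, -1.62, -0.96 and -2.32 with DSS and filgotinib. All DSS vehicle mice were above all other mice, mouse 4 highest and mouse 2 lowest among them. The differences were 1.52 ± 0.31 (adjusted p = 0.00491) for DSS and -1.75 ± 0.31 (adjusted p = 0.00468) for filgotinib. Ifit3 has a close copy, Ifit3b, measured by another probe with log2 fold changes of 1.44 and -1.64, and signal of such copies cannot be fully told apart. Ifit2 had log2 values of -3.90, -3.40, -2.46, -3.16 and -3.67 with water, -0.91, -2.57, -1.11, 0.13 and -1.72 with DSS and vehicle and -3.19, -3.43, -4.41, -2.64 and -6.08 with DSS and filgotinib. DSS vehicle mouse 2 lay below the highest water mouse, so these groups overlapped, while all DSS vehicle mice exceeded all filgotinib mice; in filgotinib mouse 5 the probe was not well above background. Ifit2 rose by 2.08 ± 0.60 (adjusted p = 0.0264) with DSS, a call that needed each of DSS vehicle mice 1 and 4 and water mice 1, 2, 4 and 5 (adjusted p up to 0.0631 without 1 of them), and fell by 2.71 ± 0.60 (adjusted p = 0.0121) with filgotinib.

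Ifit1, from the same gene cluster, had log2 values of -0.45, -0.71, 0.59, 0.17 and -0.94 with water, 0.63, -0.91, 0.74, 1.97 and 0.17 with DSS and vehicle and -0.29, -0.70, -0.63, -0.47 and -2.29 with DSS and filgotinib. The groups overlapped, since DSS vehicle mouse 2 was close to the lowest water mouse, and the differences of 0.79 ± 0.49 (adjusted p = 0.278) and -1.39 ± 0.49 (adjusted p = 0.0802) did not pass. Oas1a had log2 values of 6.09, 5.71, 6.19, 5.88 and 5.70 with water, 6.44, 6.27, 6.22, 6.60 and 6.23 with DSS and vehicle and 6.14, 5.98, 6.13, 6.38 and 5.95 with DSS and filgotinib. Its DSS vehicle mice were all above the water mice, by little in mouse 3, and overlapped the filgotinib mice. It rose by 0.44 ± 0.12 (adjusted p = 0.018) and differed by -0.24 ± 0.12 (adjusted p = 0.196) with filgotinib. Oas2, Oas3, Oasl1 and Oasl2 were called in neither comparison, with DSS differences from 0.06 for Oasl1 to 1.76 ± 0.61 (adjusted p = 0.0579) for Oas2, and filgotinib differences from -1.30 for Oas2 to -0.25 for Oasl1. In filgotinib mouse 5 the Oas3 probe was not well above background.

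**Figure D2:**
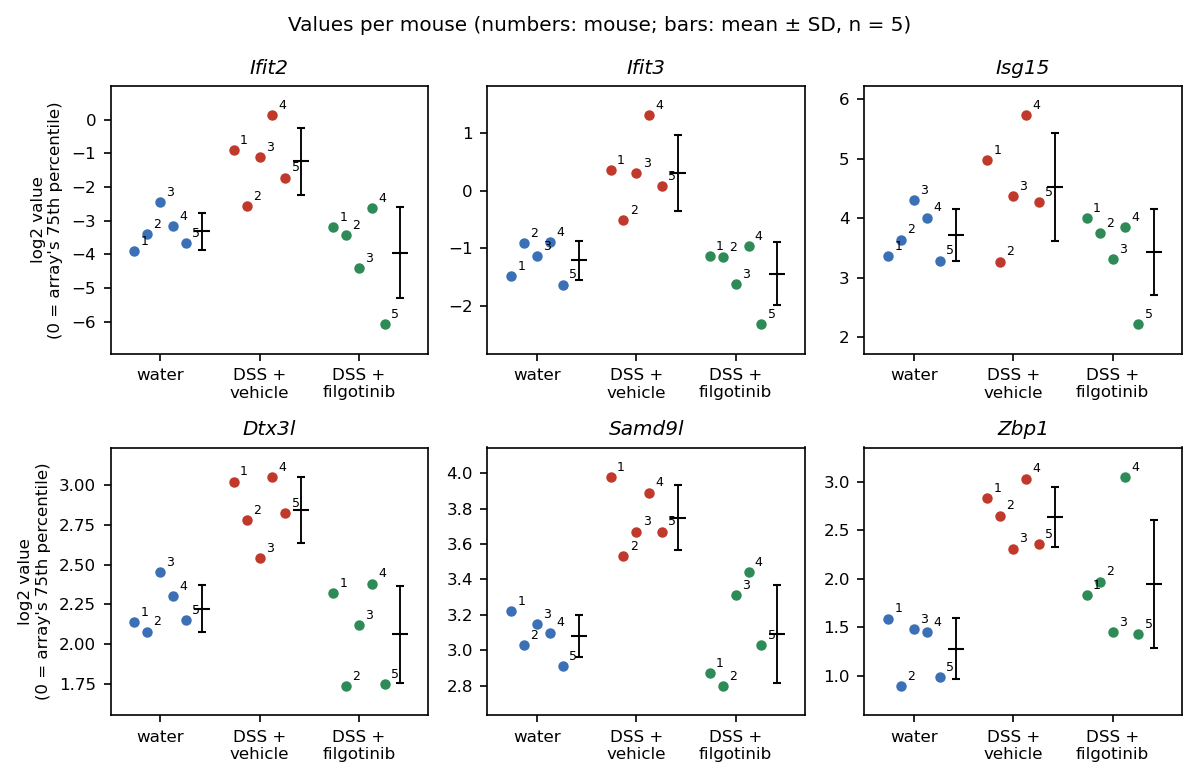
Log2 values (y axis, 0 is the 75th percentile of the array) of 6 genes in each of the 15 mice, as points numbered by mouse, with black bars for the mean ± SD of 5 mice. Dtx3l, Samd9l and Ifit3 show all DSS vehicle mice above both other groups, Zbp1 shows them above the water mice only, and in Ifit2 and Isg15 DSS vehicle mouse 2 is not above the highest water mouse.

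Of ISG15 and its conjugation enzymes, Usp18 and Herc6 fell with filgotinib (2 of 4, against 4.53% of all genes). With DSS 0 of 4 passed (2 at an unadjusted p under 0.05 in limma), a count that the 10.8% of all genes would also give. ISG15 is a ubiquitin-like protein, UBA7 and HERC6 activate and attach it, and USP18 removes it and also blocks the interferon receptor. Isg15 had log2 values of 3.36, 3.64, 4.30, 4.01 and 3.29 with water, 4.98, 3.27, 4.37, 5.73 and 4.27 with DSS and vehicle and 4.0, 3.75, 3.32, 3.85 and 2.22 with DSS and filgotinib. DSS vehicle mice 1, 3 and 4 were above every water mouse, mouse 2 was just below every water mouse, and filgotinib mouse 5 was the lowest of all. The differences were 0.80 ± 0.42 (adjusted p = 0.191) and -1.10 ± 0.42 (adjusted p = 0.102). Usp18 had log2 values of -1.86, -1.62, -1.16, -2.74 and -2.10 with water, -0.39, -1.69, -0.39, 0.90 and -0.92 with DSS and vehicle and -1.86, -1.89, -1.93, -1.51 and -3.74 with DSS and filgotinib. DSS vehicle mouse 2 lay within the range of the water and the filgotinib mice, and the other DSS vehicle mice were above both groups. Usp18 differed by 1.40 ± 0.48 (adjusted p = 0.0554) with DSS and fell by 1.69 ± 0.48 (adjusted p = 0.0374) with filgotinib, a call kept in 8 of 15 fits without 1 mouse and lost without filgotinib mouse 1, 2 or 5 or DSS vehicle mouse 1, 3, 4 or 5 (adjusted p up to 0.0824). Herc6 had log2 values of -2.82, -3.33, -2.75, -3.05 and -3.44 with water, -2.73, -3.16, -2.66, -2.58 and -2.69 with DSS and vehicle and -3.34, -3.02, -3.44, -3.65 and -3.54 with DSS and filgotinib. The filgotinib mice were overlapped by DSS vehicle mouse 2 again. It fell by 0.63 ± 0.16 (adjusted p = 0.0203) with filgotinib, and the adjusted p was 0.0525 without filgotinib mouse 5. Uba7 differed by 0.29 ± 0.12 (adjusted p = 0.108) and -0.27 ± 0.12 (adjusted p = 0.15).

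Among the nucleic acid sensors, Zbp1 was the 1 gene of 5 that passed, in the comparison of DSS vehicle with water mice (10.8% of all genes). ZBP1 binds Z-form nucleic acid and can start cell death; RIG-I (Ddx58), MDA5 (Ifih1), LGP2 (Dhx58) and PKR (Eif2ak2) bind viral RNA. Zbp1 had log2 values of 1.59, 0.90, 1.48, 1.45 and 0.99 with water, 2.83, 2.65, 2.31, 3.03 and 2.36 with DSS and vehicle and 1.83, 1.97, 1.45, 3.05 and 1.43 with DSS and filgotinib. All DSS vehicle mice were above all water mice, mouse 2 included, while filgotinib mouse 4 reached the level of the highest DSS vehicle mouse. Zbp1 rose by 1.35 ± 0.27 (adjusted p = 0.00419) and differed by -0.69 ± 0.27 (adjusted p = 0.11) with filgotinib; its second probe was called lower with filgotinib at -1.40. The other sensors had differences from 0.25 for Eif2ak2 to 0.46 for Ddx58 with DSS and from -0.57 for Dhx58 to -0.18 for Ifih1 with filgotinib. The transcription factors of the group did not pass in either comparison. Irf7, the factor that amplifies interferon-alpha production, had log2 values of 6.54, 5.89, 6.59, 6.30 and 6.03 with water, 6.37, 6.08, 6.60, 6.75 and 6.35 with DSS and vehicle and 6.59, 6.57, 6.48, 6.76 and 6.0 with DSS and filgotinib. The 3 groups overlapped, with differences of 0.16 ± 0.17 (adjusted p = 0.541) and 0.05 ± 0.17 (adjusted p = 0.88). Irf9, the DNA-binding part of ISGF3, differed by 0.50 ± 0.21 (adjusted p = 0.106) and -0.39 ± 0.21 (adjusted p = 0.241).

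Of 8 other effectors, Samd9l, Trim30a and Mx1 rose with DSS, and Samd9l, Cmpk2 and Mx2 fell with filgotinib (3 of 8 in each, against 10.8% and 4.53% of all genes). Samd9l, which restricts translation and growth, had log2 values of 3.22, 3.03, 3.15, 3.10 and 2.91 with water, 3.98, 3.53, 3.67, 3.89 and 3.67 with DSS and vehicle and 2.87, 2.80, 3.31, 3.44 and 3.03 with DSS and filgotinib. DSS vehicle mice were above all others, and filgotinib mice 1, 2 and 5 lay within or below the water range while 3 and 4 were above it. The differences were 0.67 ± 0.13 (adjusted p = 0.00294) and -0.66 ± 0.13 (adjusted p = 0.00602), the former with the lowest adjusted p of the group. Mx1, a GTPase that restricts viruses and whose gene is defective in most laboratory strains, BALB/c among them, had log2 values of -1.34, -1.08, -0.19, -0.87 and -1.34 with water, 0.14, -0.39, 0.18, 1.18 and -0.30 with DSS and vehicle and -0.80, -1.29, -1.36, 0.08 and -1.13 with DSS and filgotinib. DSS vehicle mice 2 and 5 were below the highest water mouse, and filgotinib mouse 4 reached the DSS vehicle range. Mx1 rose by 1.13 ± 0.33 (adjusted p = 0.0299), kept in 8 of 15 fits without 1 mouse (it needed each of DSS vehicle mice 1, 3 and 4 and water mice 1, 2, 4 and 5; adjusted p up to 0.0705), and differed by -1.06 ± 0.33 (adjusted p = 0.0533) with filgotinib. A second probe of Mx1 was called in both comparisons, at 1.00 and -1.36.

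Cmpk2, a mitochondrial nucleotide kinase next to Rsad2, had log2 values of -0.82, -0.58, -0.38, -0.42 and -1.19 with water, -0.03, -1.04, 0.39, 1.11 and -0.43 with DSS and vehicle and -1.18, -1.24, -1.38, -0.95 and -2.0 with DSS and filgotinib. DSS vehicle mouse 2 lay among the filgotinib mice and the other 4 were above all of them. Cmpk2 fell by 1.35 ± 0.33 (adjusted p = 0.019) with filgotinib, with an adjusted p of 0.0518 without filgotinib mouse 5, and differed by 0.68 ± 0.33 (adjusted p = 0.159) with DSS. Trim30a, a regulator of innate signalling, had log2 values of -0.52, -0.67, -0.55, -0.78 and -0.88 with water, -0.04, -0.62, -0.15, 0.46 and -0.23 with DSS and vehicle and -0.50, -0.56, -0.27, -0.75 and -0.68 with DSS and filgotinib. Only DSS vehicle mouse 2 was inside the water range, the other 4 lying above it. Trim30a rose by 0.56 ± 0.16 (adjusted p = 0.0243) (not called without DSS vehicle mouse 1, water mouse 4 or water mouse 5, adjusted p up to 0.06) and differed by -0.44 ± 0.16 (adjusted p = 0.0892) with filgotinib. Mx2 fell by 1.79 ± 0.53 (adjusted p = 0.0447) with filgotinib; the call was kept in 4 of 15 fits without 1 mouse, being lost without any mouse other than filgotinib mouse 3 or 4, DSS vehicle mouse 2 or water mouse 3. In filgotinib mouse 5 its probe was not well above background. Rsad2 (viperin, which blocks viral release), Bst2 (tetherin, which holds virions at the surface) and Ifitm3 (which blocks entry) were not called, with DSS differences of 0.58 ± 0.36 (adjusted p = 0.272), 0.50 ± 0.18 (adjusted p = 0.0693) and -0.70 ± 0.39 (adjusted p = 0.221). With filgotinib Rsad2 differed by -1.12 ± 0.36 (adjusted p = 0.0583), and its second probe was called lower at -1.77.

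Of the remaining 6 genes, Ifi44, an interferon-induced cytoplasmic protein, rose with DSS and fell with filgotinib. It had log2 values of -3.03, -3.03, -3.07, -3.41 and -3.28 with water, -0.84, -2.91, -1.44, 0.39 and -1.57 with DSS and vehicle and -4.05, -3.09, -2.55, -3.32 and -6.02 with DSS and filgotinib. All DSS vehicle mice were above the water mice, mouse 2 narrowly, and filgotinib mouse 3 was above DSS vehicle mouse 2; in filgotinib mouse 5 the probe was not well above background. The rise of 1.89 ± 0.61 (adjusted p = 0.0438) was kept in 5 of 15 fits without 1 mouse and lost in the rest, the exceptions being DSS vehicle mouse 2 and filgotinib mice 2 to 5 (adjusted p up to 0.0987), and the change with filgotinib was -2.54 ± 0.61 (adjusted p = 0.0187). Ifi27l2a, Ifi35, Lgals3bp, Rtp4 and Xaf1 were not called, with differences from 0.17 for Lgals3bp to 0.51 for Rtp4 with DSS and from -0.67 for Xaf1 to 0.53 for Ifi27l2a with filgotinib.

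**Figure D3:**
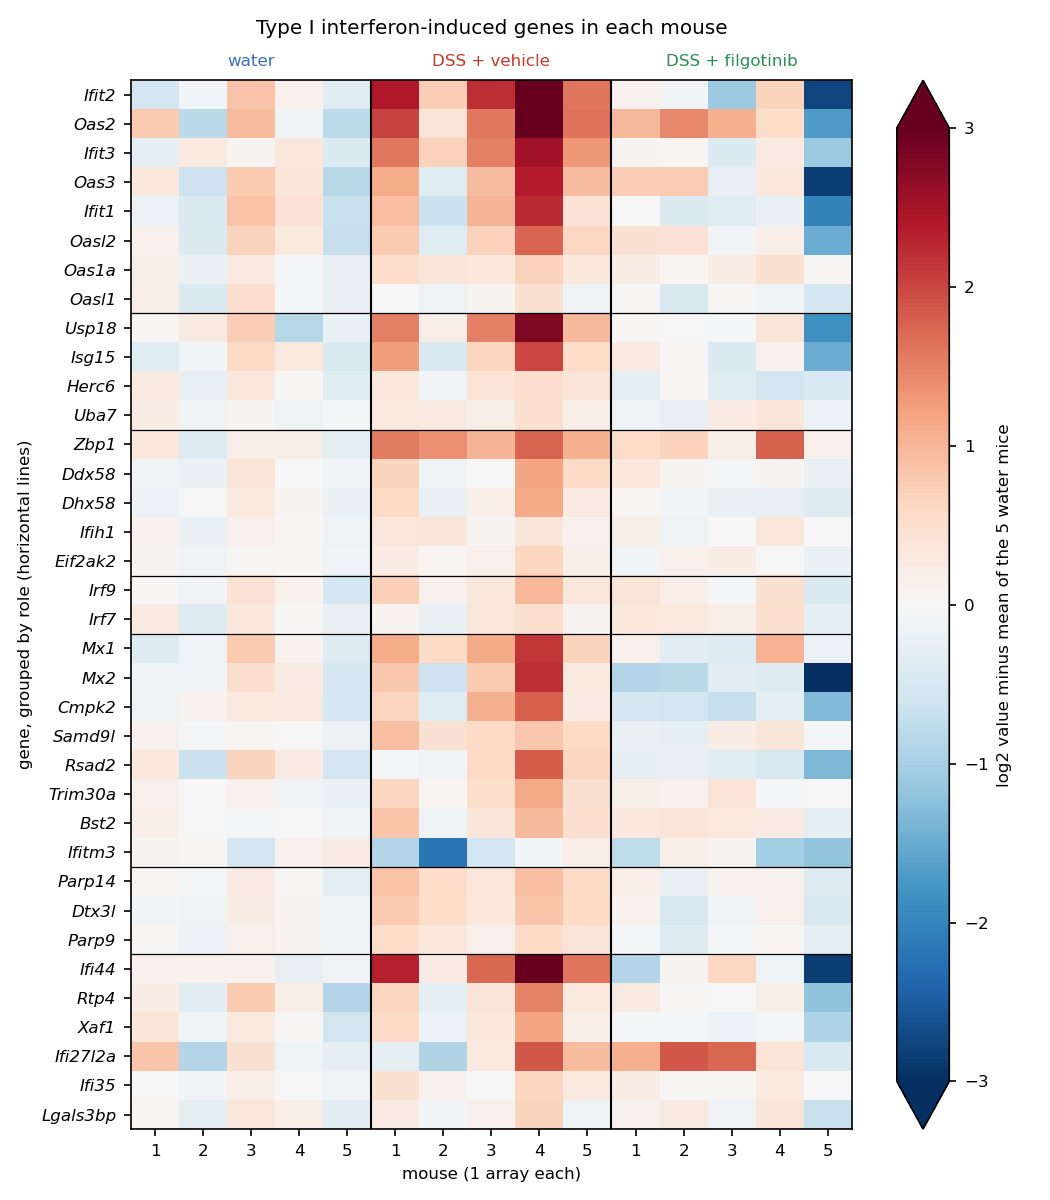
Log2 value minus the mean of the 5 water mice (colour, cut at -3 and 3) for each of the 36 genes (rows, grouped by role) in each of the 15 mice (columns, grouped by treatment). DSS vehicle mouse 4 is the highest of its group in 34 genes, DSS vehicle mouse 2 the lowest in 27, and filgotinib mouse 5 the lowest of its group in 28.

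The level of the 36 genes differed between mice of the same group, water mice included. The median over the 36 genes, relative to the water mean, was 0.11, -0.13, 0.31, 0.07 and -0.27 in water mice 1 to 5. It was 0.66, -0.01, 0.37, 1.16 and 0.44 in DSS vehicle mice 1 to 5 and 0.13, 0.04, -0.03, 0.19 and -0.47 in filgotinib mice 1 to 5. Water mouse 3 was the highest of its group in 25 genes and water mouse 5 the lowest in 20. DSS vehicle mouse 4 was the highest of all 15 mice in 31 genes. DSS vehicle mouse 2 was above every water mouse in 10 genes, among them Zbp1, Ifit3, Dtx3l, Parp14, Parp9, Samd9l and Oas1a. Filgotinib mouse 5 was below every water mouse in 26 genes, and its array had the smallest share of probes well above background (50.2%). How many of all genes lay outside the water range in these mice was not counted. Whether these counts are particular to the 36 genes was therefore not tested. Without DSS vehicle mouse 4 and filgotinib mouse 5, 12 of the 36 genes rose with DSS (against 7.88% of all genes). With filgotinib 7 fell (against 1.85%), the same 7 genes that were called in both comparisons over all mice, and the median change was -0.32.

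Slides and scan days held unequal mixtures of groups. On slide 4, with DSS vehicle mouse 2 and water mice 3 and 5, the median difference over the 36 genes was -0.04 (0.08 over all genes), with Zbp1 at 1.41, Ifit3 at 0.88, Parp14 at 0.59 and Samd9l at 0.51 but Isg15 at -0.53 and Ifit1 at -0.74. On slide 2, with filgotinib mice 1 and 2 and DSS vehicle mice 1, 4 and 5, the median was -0.68, and both filgotinib mice were below all 3 DSS vehicle mice for 29 of the 36 genes, as for 17.6% of all genes. In slide 2 alone 0 of the 36 genes were called (16 at an unadjusted p under 0.05 in limma), and 0.00454% of all genes were called lower. On the first scan day, which held 3 water, 3 DSS vehicle and 4 filgotinib mice, 8 genes rose with DSS (3.19% of all genes; median of the 36 genes 0.77) and 12 fell with filgotinib (3.6% of all genes; median -0.82), all 36 differences being below 0. On that day all water arrays lay on slide 1 and all DSS vehicle arrays on slide 2, so DSS and slide cannot be told apart. DSS vehicle mouse 2, the lowest of its group in 27 genes, was scanned on another day. With the scan day as a fixed block 8 rose and 11 fell, against 8.82% and 5.18% of all genes. Ifit2, Ifi44 and Mx1 were then not called for DSS (adjusted p = 0.0765, 0.0747 and 0.0732) and Usp18 not for filgotinib (adjusted p = 0.0726).

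The pathway around these genes changed in parts. Of the interferon ligands, 8 of 21 could be tested and 0 were called in either comparison (lowest adjusted p = 0.0715, for Ifnk with filgotinib). The shares of all genes, 10.8% and 4.53%, would also give this count. The interferon-alpha genes tested were dim, with water means from -4.31 for Ifna2 to -3.28 for Ifna14. The count therefore does not show that ligand RNA was unchanged. Ifnb1, Ifng and most interferon-alpha genes were not among the genes tested. Among 11 receptor and signalling genes, Il10rb, a receptor chain of interferon lambda, rose with DSS (10.8% of all genes did), at 0.39 ± 0.10 (adjusted p = 0.018). That is 1 named gene and not a count of the list. Ifnlr1, the interferon lambda receptor, fell with filgotinib, at -0.69 ± 0.18 (adjusted p = 0.0239), as the 1 gene of 11 (9.09%, against 4.53% of all genes). The receptor chains Ifnar1 and Ifnar2 and the kinases Jak1 and Tyk2 differed with DSS by 0.12, 0.17, 0.10 and 0.25 (adjusted p = 0.18, 0.769, 0.322 and 0.0525), Stat2 by 0.35 (adjusted p = 0.131) and Irf3, the factor that induces interferon-beta, by -0.11 (adjusted p = 0.447).

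Of 8 feedback inhibitors 2 rose with DSS (25.0%, against 10.8% of all genes) and 1 fell with filgotinib (12.5%, against 4.53%). Socs3 and Socs1, which bind and inhibit JAK kinases or their receptors, rose with DSS, at 2.37 ± 0.29 (adjusted p = 0.000193) and 0.48 ± 0.13 (adjusted p = 0.0191). Socs3 fell with filgotinib by 1.58 ± 0.29 (adjusted p = 0.00489). Of 14 nucleic acid sensing genes 2 rose with DSS (14.3%, against 10.8% of all genes) and 1 fell (7.14%, against 8.41%). These shares are near those of all genes. With filgotinib 2 fell (14.3%, against 4.53%) and 0 rose (against 6.79%). Tlr3, the receptor for double-stranded RNA, rose with DSS at 0.65 ± 0.10 and fell with filgotinib at -0.61 ± 0.10 (adjusted p = 0.00134 and 0.00397). Ikbke rose with DSS (0.47, adjusted p = 0.00287). Mb21d1, which encodes the DNA sensor cGAS, fell with DSS (-0.74, adjusted p = 0.00547), and Ticam1 fell with filgotinib (-0.39, adjusted p = 0.039). Of 46 other interferon-stimulated genes 15 rose (32.6%, against 10.8% of all genes) and 0 fell with DSS (8.41% of all genes). With filgotinib 10 fell (21.7%, against 4.53%) and 1 rose (2.17%, against 6.79%). The largest called changes were rises with DSS of Ifitm1 (2.57 ± 0.66, adjusted p = 0.0153), Phf11a (2.27 ± 0.37, adjusted p = 0.00144) and Phf11d (1.74 ± 0.39, adjusted p = 0.00756). With filgotinib Ifit3b changed most (-1.64 ± 0.26, adjusted p = 0.0027). Of 29 interferon gamma-induced genes 15 rose with DSS (51.7%, against 10.8% of all genes) and 8 fell with filgotinib (27.6%, against 4.53%). In filgotinib mice 3 were above water (10.3%, against 6.42% of all genes), Ido1, Irf1 and Wars, with Ido1 at 3.09 ± 0.67 (adjusted p = 0.0168). All of these lists share the DSS vehicle mice between comparisons, and their counts are descriptions.

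**Figure D4:**
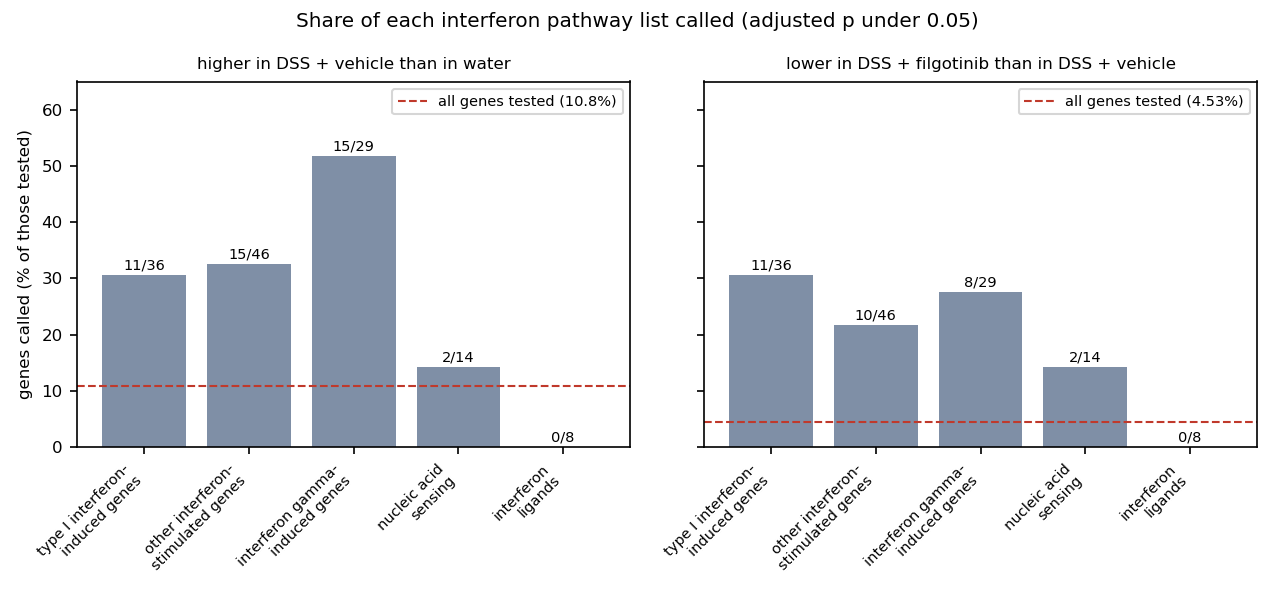
Share of the tested genes (y axis, %) of 5 interferon lists (x axis) that rose with DSS (left) and fell with filgotinib (right), with counts above the bars and the share over all 22015 genes as a dashed line. The type I interferon-induced genes stand at 30.6% in both panels, and 0 of 8 ligands were called, as the share over all genes would also give.

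Markers of other cells that could contribute were called in part. With DSS 6 of 11 epithelial, 2 of 5 neutrophil and 2 of 6 B and plasma cell markers rose (10.8% of all genes). So did 1 of 11 macrophage and monocyte and 1 of 8 plasmacytoid dendritic cell markers. Of the plasmacytoid dendritic cell markers 1 of 8 fell (12.5%, against 8.41% of all genes). With filgotinib 1 of 5 neutrophil markers fell (20.0%, against 4.53% of all genes). Of T and NK cell, fibroblast, smooth muscle and endothelial markers 0 were called in either comparison. At an unadjusted p under 0.05 in limma there were 3, 2, 1 and 0 with DSS and 1, 2, 0 and 0 with filgotinib. All 11 macrophage and monocyte markers had higher means with DSS (median 0.74, 6 at an unadjusted p under 0.05 in limma). With filgotinib all 11 means were lower than in DSS vehicle mice (median -0.42, 2 at an unadjusted p under 0.05 in limma). The summed level of 11 macrophage and monocyte markers (linear signal relative to the 75th percentile, lowest to highest mouse) was 144 to 178 in water, 241 to 314 in DSS vehicle and 155 to 311 in filgotinib mice, and Ly6c2 was the 1 marker of 11 that rose with DSS (1.21 ± 0.21, adjusted p = 0.00172). Such sums follow their brightest probes: Ly6c2 made up 62.3 to 84.8 of this sum in water and 139 to 200 in DSS vehicle mice (76.3 to 198 in filgotinib mice), and Itgam 65.2 to 75.4 and 63.8 to 99.6 (57.5 to 75.6). The other 9 markers summed to 14.6 to 28.6 in water, 25.2 to 62.8 in DSS vehicle and 14.9 to 41.2 in filgotinib mice. The sum of all 11 was 311 in DSS vehicle mouse 2, 262 in DSS vehicle mouse 4, 155 in filgotinib mouse 5 and 311 in filgotinib mouse 4. The 5 neutrophil markers tested summed to 160 to 186, 194 to 212 and 172 to 184, of which Csf3r made up 80.4% or more in every mouse, and S100a9 changed by 3.85 ± 0.82 with DSS (adjusted p = 0.00608) and by -3.12 ± 0.82 with filgotinib (adjusted p = 0.028). The 6 T and NK cell markers tested summed to 4.06 to 5.09, 4.72 to 6.2 and 4.47 to 5.35. The 6 fibroblast markers ranged from 3.54 to 24.2, 11.1 to 61.5 and 1.57 to 49.7, and the 11 epithelial markers from 1480 to 1720, 1830 to 2050 and 1670 to 1930. The 8 plasmacytoid dendritic cell markers ranged from 367 to 419, 348 to 402 and 372 to 428. Over the 15 mice Klk1 made up 31.2% to 52.7% of that sum and Siglech 40.4% to 60.3%, and the other markers added only 23.7 to 30.2. B and plasma cell markers summed to 1.13 to 7.07, 0.761 to 8.28 and 0.468 to 6.99, smooth muscle markers to 22.8 to 30.9, 28.7 to 97.1 and 25.4 to 46.3, and endothelial markers to 2.2 to 3.29, 2.01 to 5.88 and 2.13 to 4.88. The part of any of these cells in the changes of the interferon-induced genes was not tested.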

How the data were processed

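Total RNA of the colon mucosa of 15 mice was labelled with Cy3 and hybridised to 15 Agilent arrays, per the labels' protocols. The scanner files hold, per the file headers, the intensity of each spot, with background subtracted and a spatial trend removed array by array. Agilent Feature Extraction 11.5.1.1 is named in the submitters' processing notes, as is limma. The authors also deposited a table of log2 values; how arrays were normalized for it is not given in the sources used here. Control spots were not used.

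The 36 genes, the pathway and marker lists and the comparisons were chosen with earlier results of these data known. Of 56605 probes that are not controls, 101 with an outlier mark were left out. The intensity was taken as log2 and the 75th percentile of each array was subtracted. Probes well above background on 5 or more arrays were kept, and the brightest one stood for its gene (22015 genes). Differences between groups come from limma 3.58.1 (R 4.3.3; lmFit, eBayes) in 1 two-sided fit over 15 arrays, with Benjamini-Hochberg adjustment. The code was tested on simulated data. Gene names are those of the scanner files. RefSeq tables (GRCm38.p6) gave promoter windows and neighbouring genes only, and tables and figures were made with Python 3.11.15.

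Values for every mouse are given for the 14 called genes with the smallest adjusted p and for Isg15, Mx1, Ifit1 and Irf7. Of each pathway list, genes with the largest changes are named, besides Ifnar1, Ifnar2, Jak1, Tyk2, Stat2, Irf3 and Ifnb1. Of the genes this rule names, 1 is not reported here. Alternatives were other scalings (common median, quantile), normexp background correction, the deposited log2 table, other filters on dim probes, the mean of a gene's probes, RefSeq names, a fit of the compared groups only, slide or replicate number as a block, array weights and leaving out each mouse. Precision is limited by the 15 arrays.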

Additional observations from a re-analysis of the deposited data

Results flagged for a closer look

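A mouse stood apart from the other 4 of its group in 13 of 108 combinations of gene and group, by a gap to its nearest neighbour above 0.71 of the group's range. Chance alone flags about 1 in 20 groups, and the genes are not independent of each other. Filgotinib mouse 5 was the lowest of its group in 10 of them. The gap was 0.862 of the range for Xaf1, 0.817 for Rtp4, 0.814 for Usp18, 0.805 for Rsad2, 0.8 for Mx2, 0.799 for Ifit1, 0.781 for Bst2, 0.72 for Oas2, and 0.718 for both Oas3 and Oasl2. The others were Eif2ak2 in DSS vehicle mouse 4, the highest of its group (0.733), Herc6 in DSS vehicle mouse 2, the lowest (0.742), and Ifitm3 in water mouse 3, the lowest (0.743).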

How the results depend on the processing

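The count of the 36 genes called higher with DSS, 11 in the fit over 15 arrays, was 20 with array weights (16.3% of all genes higher), 0 with the slide as a fixed block (0.154%) and 7 to 15 when 1 mouse was left out; the median difference of 0.54 became -0.04 with the slide block, where it rests on slide 4 (0.38 to 0.68 without 1 mouse). When 1 mouse was left out, the share of all genes higher with DSS (10.8% over all mice) moved too. It was 7.3%, 6.91% and 7.67% without DSS vehicle mouse 1, water mouse 4 or water mouse 5, where the count was 7. Without DSS vehicle mouse 2, where the count was 15, it was 9.05%. The count called lower with filgotinib, also 11, was 7 when only the compared groups were fitted (2.37% of all genes lower). It was 2 with the slide as a fixed block (0.922%) and 7 to 16 without 1 mouse (2.38% to 5.53%). After seeing the data 5 settings were added. Without DSS vehicle mouse 4 and filgotinib mouse 5 the filgotinib count was 7 (1.85% of all genes lower) and the median -0.32. Within slide 2 the count was 0 (0.00454% of all genes). The settings on scan day and on the arrays alone on their slides gave 8 to 9 higher with DSS (3.19% to 9.31% of all genes). They gave 9 to 12 lower with filgotinib (3.6% to 5.8%). The median of filgotinib minus water was -0.67 with the slide block, and 34 of the 36 differences lay below 0. No slide held both groups, so this difference runs through the DSS vehicle mice of slides 4 and 2. In that fit 0% of all genes were called higher and 0.00908% lower, so 0 of 36 is what these shares give. For filgotinib against water 0 of the 36 genes were called in every setting. Other scalings gave 8 higher (common median, 4.34% of all genes) and 9 (quantile, 8.67%), and 11 lower in both (2.48% and 4.69%). The deposited table gave 12 and 11 (9.54% and 5.39%). The sources used here do not state that replicate numbers pair mice. Correlations of same-numbered mice ran from -0.516 to 0.532 and were not compared with those of differently numbered mice. With the replicate number as a block 10 genes were higher and 12 lower (8.36% and 3.08% of all genes). Over all genes the share of higher among called genes was 56.1% for DSS, and 37.9% with a common median. The cause of these differences was not tested.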
